A study of Mus musculus with 4 samples.

Results

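The genes described here encode the enzymes and cofactors that write, copy and remove DNA methylation in mouse, namely Dnmt1, Uhrf1, Hells, Dnmt3a, Dnmt3b, Dnmt3l, Tet1, Tet2, Tet3 and Tdg. They were chosen by name, and 9 of these 10 genes had a probe whose accession carried their symbol. These 9 were read by 16 probes and stood among 21639 genes and transcripts tested. No accession on the array matched Tet1, so its level was not analysed here.

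RNA came from 4 mouse embryonic stem cell (ESC) lines, each read on 1 whole-genome Agilent array with Cy3 as the only dye. Both wild-type lines (WT 1 and WT 2) had the genotypes 15-1+/+ and 15-2+/+. Both knockout lines (KO 1 and KO 2) were 15-2-/- and 15-1CT/CT, where 15-2 is ECAT15-2, also called Dppa2, 15-1 is its neighbour ECAT15-1, also called Dppa4, and CT stands for a conditional targeted allele. The KO lines thus differed from the WT lines at 2 loci, and an effect of the CT allele cannot be told apart from one of the Dppa2 deletion. Each line grew out of its own blastocyst from crosses of parents heterozygous at both loci (15-1+/CT and 15-2+/-). WT 1 and KO 1 had mother 1046, and WT 2 and KO 2 had mother 875. The mice were a mixture of 129Sv and C57/BL6 with a Cre or FLPe transgenic parent of unknown background. All 4 lines were kept for 3 days on gelatin in medium with LIF and 15% serum, and the labels name no feeder cells. The comparison of genotypes asks what the loss of Dppa2, a DNA- and chromatin-binding protein of pluripotent cells, does to expression in ESCs.

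Methylation of cytosine at CpG sites is laid down by Dnmt3a and Dnmt3b, helped by Dnmt3l, which has no catalytic activity of its own. After each replication Dnmt1 copies the mark to the new strand, guided by Uhrf1, which binds hemimethylated DNA, while the chromatin remodeller Hells opens nucleosomal DNA to these enzymes. Tet enzymes oxidise methylcytosine, and Tdg cuts out the most oxidised forms so that base excision repair can restore an unmodified cytosine. ESCs grown in serum and LIF carry all of these activities at once, with Tet1 and Tet2 as their main Tet enzymes.

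The start-site sequences of these genes differ in CpG content, and 5 are shown because they belong to the genes with the largest differences between genotypes and to the maintenance group. They come from the RefSeq table of GRCm38.p6 and are written 5′ to 3′ on the strand of the gene. The 2 windows of 250 bases before the annotated start, with every CpG in capitals, are those of Tet2 (chr3:133544391-133544640, minus strand) and of the most upstream of 3 Dnmt3l starts (chr10:78042037-78042286, plus strand).
Tet2: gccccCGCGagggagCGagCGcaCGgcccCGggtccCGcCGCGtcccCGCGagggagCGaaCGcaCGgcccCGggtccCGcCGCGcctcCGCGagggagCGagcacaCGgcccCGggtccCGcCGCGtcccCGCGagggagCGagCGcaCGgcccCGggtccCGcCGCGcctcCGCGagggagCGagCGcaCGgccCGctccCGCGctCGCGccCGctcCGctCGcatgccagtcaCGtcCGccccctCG
Dnmt3l: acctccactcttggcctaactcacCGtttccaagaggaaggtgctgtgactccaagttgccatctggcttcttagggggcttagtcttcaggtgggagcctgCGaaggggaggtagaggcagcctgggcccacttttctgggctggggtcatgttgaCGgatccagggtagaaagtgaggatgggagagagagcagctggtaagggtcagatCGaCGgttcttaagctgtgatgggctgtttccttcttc

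The Tet2 window held 51 CpG sites, more than 99.9% of the 32851 windows in the table, whose median was 6. The Dnmt3l window held 5, more than 44.4% of all windows, and the other Dnmt3l windows held 4 and 3. Tet2 and Dnmt3l, the members with the largest positive differences described below, thus had start regions of very different CpG content. The remaining members lay between 2 CpG sites (the first of 3 Dnmt1 windows) and 40 (the second of 3 Dnmt3a windows). The arrays do not tell which start a line used.

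The 3 maintenance genes each had a window with a match to a motif of E2F factors, which drive genes of the DNA synthesis phase. The letters searched were TTTCCCGC, TTTCGCGC, TTTGCCGC and TTTGGCGC on both strands, where a match and its own reverse complement count once. The 30 bases around each match are shown with the matched letters in capitals, at chr9:20952824-20952853 (minus strand), chr17:56304117-56304146 (plus strand) and chr19:38930917-38930946 (plus strand).
Dnmt1: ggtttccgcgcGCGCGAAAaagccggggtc
Uhrf1: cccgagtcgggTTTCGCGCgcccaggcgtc
Hells: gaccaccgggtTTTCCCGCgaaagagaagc

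The matches began 219 bases before the last of 3 Dnmt1 starts, 185 bases before the second of 2 Uhrf1 starts and 62 bases before the Hells start. The same search matched 3 of the 17 windows of the 10 genes and 1.86% of all windows. The octamer ATGCAAAT matched none of the 17 windows and 1.60% of all, and the Esrrb motif TCAAGGTCA matched none and 0.387% of all. The GC box GGGCGG lay in 12 of the 17 windows, spread over 9 of the 10 genes, and in 32.7% of all windows. The E2F letters and the GC box each contain a CpG. The windows with an E2F match held 26 (Dnmt1), 30 (Uhrf1) and 28 (Hells) CpG sites, beside a median of 6. The shares of all windows were not matched for CpG content, and the first and second Dnmt3a windows overlap. The motifs were picked after expression values had been seen, and a match describes letters, not binding.

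On the arrays, the KO levels of Dnmt3l and Tet2 were 2.59-fold and 3.18-fold above WT, Uhrf1 was 1.50-fold above and Tet3 1.80-fold below. None of the 9 genes passed the test across all genes, which was limma with Benjamini-Hochberg adjustment at 0.05 and called 0.176% of all genes higher and 1.67% lower in KO. At an unadjusted p under 0.05, 3 of the 9 were higher (Dnmt3l, Tet2 and Uhrf1), where the share of all genes was 11.1%, and 1 was lower (Tet3), where it was 12.4%. The first count was 2 with the shared mother as a block in the fit, which left out Uhrf1, and ranged from 2 to 4 over 15 alternatives. With 2 lines a group, each line read once, limma p-values rest on the spread between lines of a genotype. The fit drew that spread, gene by gene, towards the typical spread of all genes. In such bulk RNA, a different share of cells of one state and a different amount of RNA per cell cannot be told apart.

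**Figure D1:**
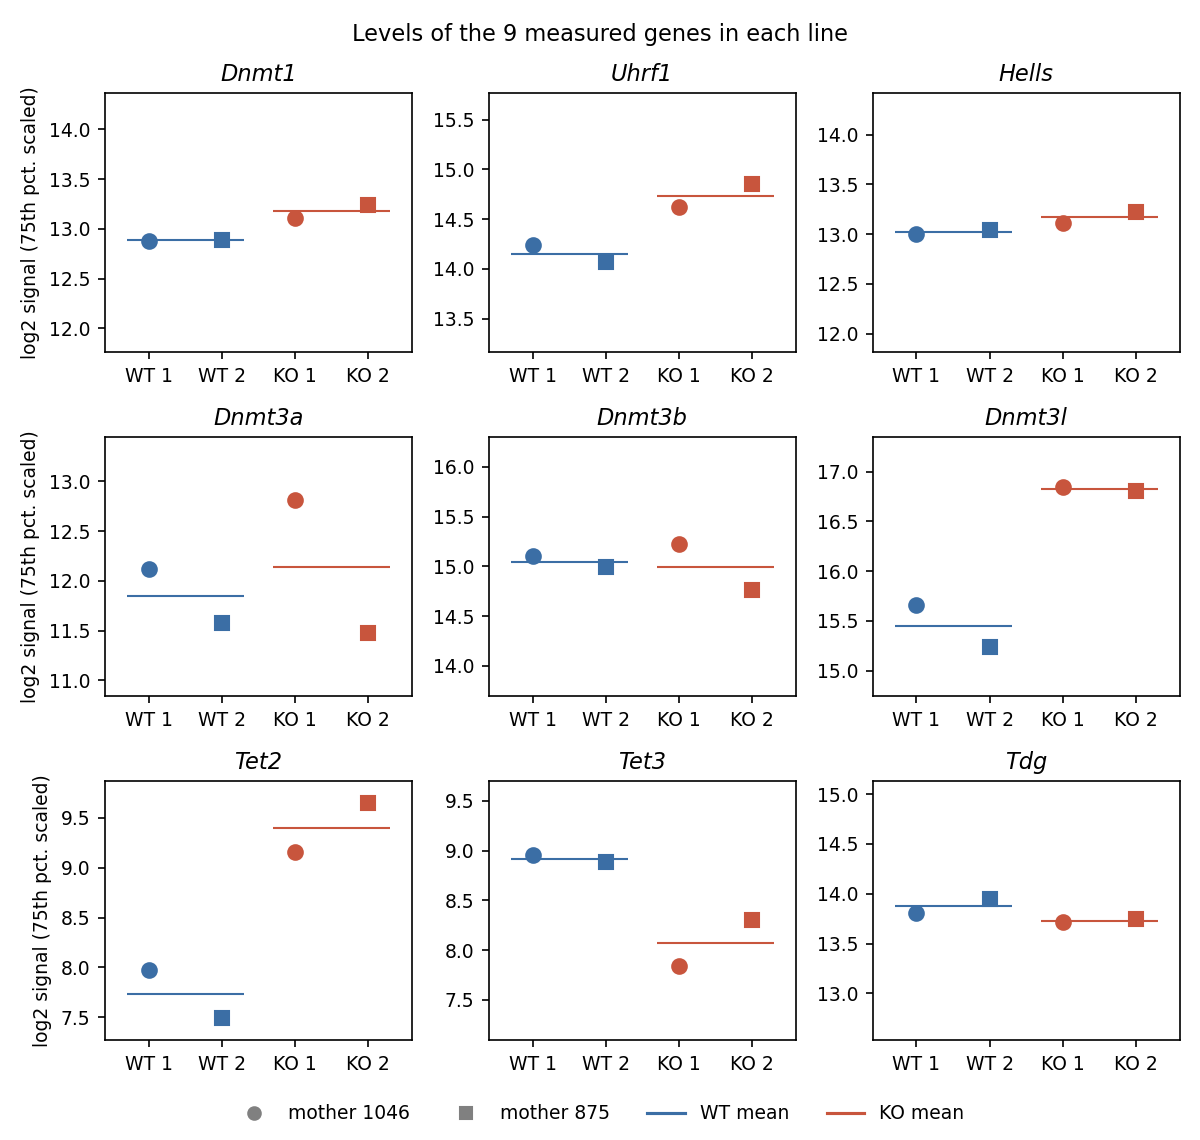
Level of each of the 9 measured genes in each line, as log2 signal scaled to the 75th percentile of its array (vertical axis) for the 4 lines (horizontal axis). Circles are lines of mother 1046, squares are lines of mother 875, and horizontal bars are the means of 2 lines. KO points lie above both WT points for Dnmt1, Uhrf1, Hells, Dnmt3l and Tet2 and below both for Tet3 and Tdg, while Dnmt3a and Dnmt3b overlap. Axes cover the same span in log2 units but start at different levels, since levels of different probes are not comparable.

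Among the maintenance genes, the levels of Uhrf1 were 14.24 in WT 1, 14.07 in WT 2, 14.62 in KO 1 and 14.85 in KO 2, on the log2 scale with each array's 75th percentile set equal. Both KO lines lay above both WT lines. The log2 difference was 0.58 (SE 0.16, 95% interval 0.13 to 1.04), with adjusted p = 0.164 in limma with Benjamini-Hochberg adjustment. Within mother 1046 the KO line was 0.38 above its WT sister line, and within mother 875 it was 0.78 above. A second Uhrf1 probe read 13.19 and 13.12 in the WT lines and 13.61 and 13.94 in the KO lines, a log2 difference of 0.62.

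Dnmt1, the copying enzyme itself, read 12.87 and 12.89 in WT 1 and WT 2 and 13.11 and 13.24 in KO 1 and KO 2. The KO lines were again both above the WT lines, but the gap was smaller, a log2 difference of 0.29 (SE 0.13, 95% interval -0.08 to 0.66, limma adjusted p = 0.273). Hells, the remodeller, read 13.00 and 13.04 in WT and 13.12 and 13.22 in KO, a log2 difference of 0.15 (SE 0.13, 95% interval -0.21 to 0.51, limma adjusted p = 0.495). Its KO lines too lay above its WT lines, but the median difference of all genes was itself 0.10. With quantile scaling the Hells difference was 0.039, below the all-gene median of 0.10 on that scale. Within a line, the ratio of the Uhrf1 signal to the Dnmt1 signal was 0.29 higher in KO on the log2 scale, and that of Uhrf1 to Hells 0.43 higher. The KO ratios lay above the WT ratios in both cases, with an exact two-sided permutation p of 0.333, the smallest that 2 lines against 2 can give. Both ratios share the Uhrf1 signal, so they are not separate observations.

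The de novo genes had unequal differences, none of which passed the test across all genes. The levels of Dnmt3l, the cofactor without catalytic activity, were 15.66 in WT 1 and 15.24 in WT 2 against 16.85 in KO 1 and 16.80 in KO 2. The KO lines lay within 0.047 of each other, and both were far above the WT lines. The log2 difference was 1.37 (SE 0.20, 95% interval 0.81 to 1.94), a 2.59-fold higher signal, with adjusted p = 0.0776 in limma. Dnmt3l had no second probe to set beside this value. It was 1.18 within mother 1046 and 1.56 within mother 875, and larger than the difference of 98.2% of all genes. Dnmt3l passed the limma test in 2 of 15 alternatives, both with the same sign. A background correction with normexp and 75th-percentile scaling gave limma adjusted p = 0.0491, and a variance prior with trend and robust fit gave 0.0439. The limma adjusted p was 0.125 with the mother as a block and 0.0958 with quantile scaling.

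Dnmt3b, the main de novo enzyme of the early embryo, read 15.10 and 14.99 in the WT lines and 15.22 and 14.77 in the KO lines. The WT values lay between the KO values, and the log2 difference was -0.051 (SE 0.21, 95% interval -0.65 to 0.55, limma adjusted p = 0.895). The pairs went opposite ways, with 0.12 within mother 1046 and -0.22 within mother 875.

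Dnmt3a, the other catalytic de novo enzyme, read 12.12 and 11.57 in the WT lines and 12.81 and 11.47 in the KO lines. The WT values again fell between the KO values, so the groups overlapped. The log2 difference was 0.30 (SE 0.54, 95% interval -1.26 to 1.85, limma adjusted p = 0.750). That wide interval includes the Dnmt3l difference of 1.37. KO 2 was 1.33 log2 units below KO 1 and WT 2 was 0.54 below WT 1, and its spread within groups was larger than that of 92.2% of all genes. The lines of mother 875 were thus the lower ones in each genotype. Without KO 1 the difference had the opposite sign, -0.37.

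In each of the 3 Dnmt3a probes KO 2 lay below KO 1 and WT 2 below WT 1. The probe above and a dimmer one carried the accession NM_007872, and the dimmer one had a log2 difference of 0.24. The probe with the accession NM_153743, another transcript record of the gene, read 11.22 and 10.84 in the WT lines and 12.13 and 11.17 in the KO lines, a log2 difference of 0.62. KO 2 lay just below WT 1, so this probe overlapped too, although both pairs were positive, at 0.91 and 0.33. Its ratio to the brighter NM_007872 probe was 0.33 higher in KO on the log2 scale, with an exact permutation p of 0.333.

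Set against its catalytic partners within each line, the Dnmt3l signal was higher in KO by 1.42 log2 units relative to Dnmt3b and by 1.08 relative to Dnmt3a. Relative to Dnmt1 it was higher by 1.08 as well. The ratios did not overlap between genotypes in any of the 3 cases, and each had the smallest possible exact permutation p of 0.333. All 3 share the Dnmt3l signal, so they are not separate observations, and no share over other gene pairs stands beside them. Relative to Dnmt3a the change was uneven, 0.49 within mother 1046 and 1.66 within mother 875. The ratio of Dnmt3b to Dnmt3a overlapped, with a change of -0.35 and an exact permutation p of 0.667. Such ratios need no scaling between arrays and describe unequal signal change in these lines only.

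**Figure D2:**
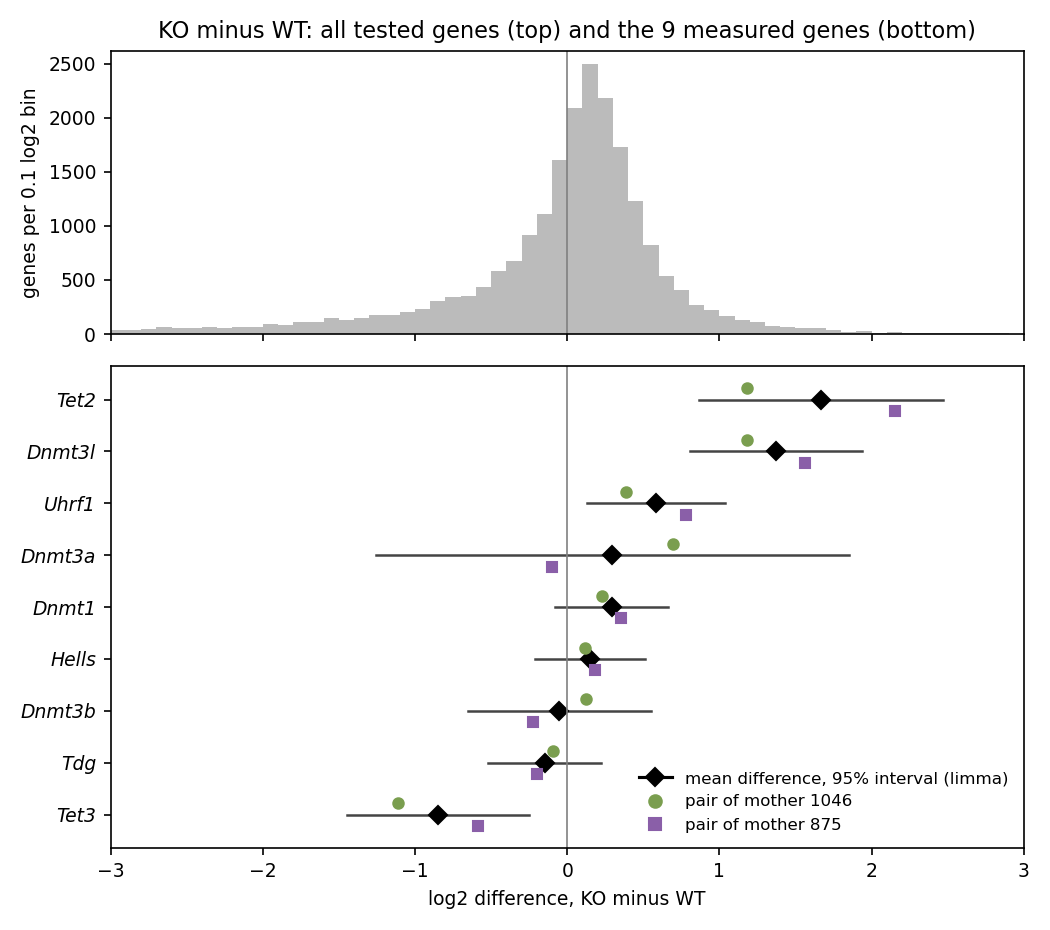
Top, number of tested genes (vertical axis) in bins of 0.1 log2 units of the KO minus WT difference (horizontal axis), drawn from -3 to 3. Bottom, the 9 measured genes on the same horizontal axis, with diamonds for the mean difference, bars for the 95% interval from limma, circles for the pair of mother 1046 and squares for the pair of mother 875. Tet2 at 1.67 and Dnmt3l at 1.37 lie in the right tail of all genes, and the intervals of Dnmt3a, Dnmt1, Hells, Dnmt3b and Tdg include 0.

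The Tet genes pointed in opposite directions. Tet2 levels were 7.98 in WT 1, 7.49 in WT 2, 9.16 in KO 1 and 9.65 in KO 2. The lower KO line was above the higher WT line by more than a 2-fold signal. The log2 difference was 1.67 (SE 0.28, 95% interval 0.87 to 2.47), a 3.18-fold higher signal, with adjusted p = 0.0933 in limma. The pair of mother 1046 differed by 1.18 and that of mother 875 by 2.16. The difference was larger than that of 99.1% of all genes, and a second Tet2 probe gave 1.82, with 6.89 and 6.96 in WT and 8.43 and 9.07 in KO.

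Tet3, known best from the oocyte and from differentiating cells, read 8.95 in WT 1, 8.89 in WT 2, 7.84 in KO 1 and 8.30 in KO 2. Both KO lines lay below both WT lines. The log2 difference was -0.85 (SE 0.21, 95% interval -1.45 to -0.25, limma adjusted p = 0.145), a 1.80-fold lower signal. A second probe gave -0.49, with 4.54 in both WT lines and 3.96 and 4.13 in KO. That probe was dim, since the lowest signal that counted as above background was 3.24 (KO 1) to 3.58 (WT 1). The third Tet3 probe was not well above background on any of the 4 arrays and was not tested.

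The ratio of the Tet2 to the Tet3 signal was 2.30 log2 units higher in KO 1 than in WT 1 and 2.74 higher in KO 2 than in WT 2. The mean change was 2.52, a 5.73-fold shift of the ratio. Tet2 lay higher and Tet3 lower in KO, each without overlap, so their ratio had to separate the genotypes. Its exact permutation p of 0.333, the smallest possible, was thus fixed in advance and adds no support. KO 1 and KO 2 differed by 0.029 in this ratio and the WT lines by 0.42. Tet1 was not part of this comparison.

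Tdg, the glycosylase that removes oxidised methylcytosine, read 13.81 and 13.95 in WT and 13.72 and 13.75 in KO. The KO lines lay just below the WT lines. The log2 difference was -0.15 (SE 0.13, 95% interval -0.52 to 0.22, limma adjusted p = 0.514), and its second probe gave -0.18. When arrays were centred on their medians the Tdg difference was 0.022.

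**Figure D3:**
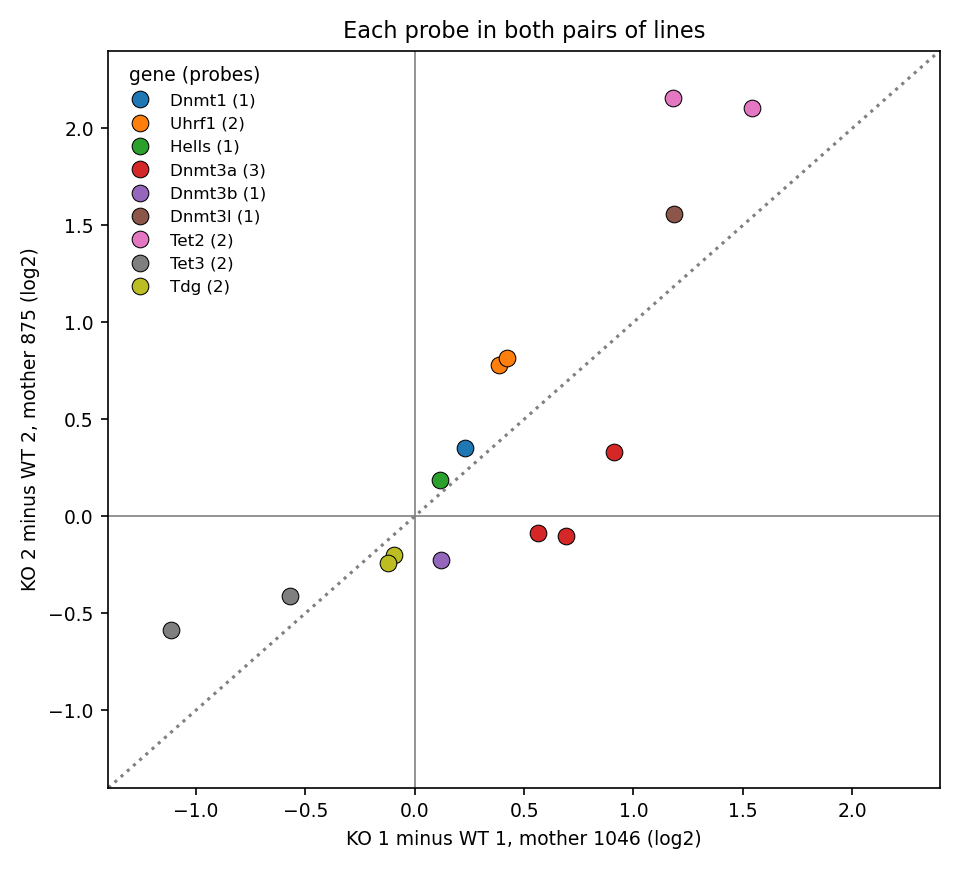
Each of the 15 probes above background for the 9 genes, with the log2 difference KO 1 minus WT 1 (mother 1046, horizontal axis) against KO 2 minus WT 2 (mother 875, vertical axis); colours mark genes, the key gives the number of probes, and the dotted line marks equal differences. Tet2, Dnmt3l and Uhrf1 probes fall in the upper right, Tet3 and Tdg in the lower left, and Dnmt3b and 2 of the 3 Dnmt3a probes in the lower right, where the pairs disagree.

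For the 5 genes with several probes above background, the probes gave differences of the same sign in 5 of 5. The 2 pairs of lines gave the same sign for 7 of the 9 genes and opposite signs for Dnmt3a and Dnmt3b. The share of all genes was not computed for either count. Any gene without overlap between genotypes has pairs of the same sign. Both KO lines lay above both WT lines for 5 genes, where 37.7% of all genes did so, and below for 2 genes, where 24.5% did. At least a 2-fold difference in the same direction in both pairs was met by Dnmt3l and Tet2 upwards, where 1.56% of all genes met it, and by no member downwards, where 6.94% did. The median difference of the 9 genes was 0.29, beside 0.10 for all genes. When arrays were centred on their medians, the median difference was 0.26 for all genes and 0.46 for the 9. The arrays read RNA, and DNA methylation itself was not measured.

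**Figure D4:**
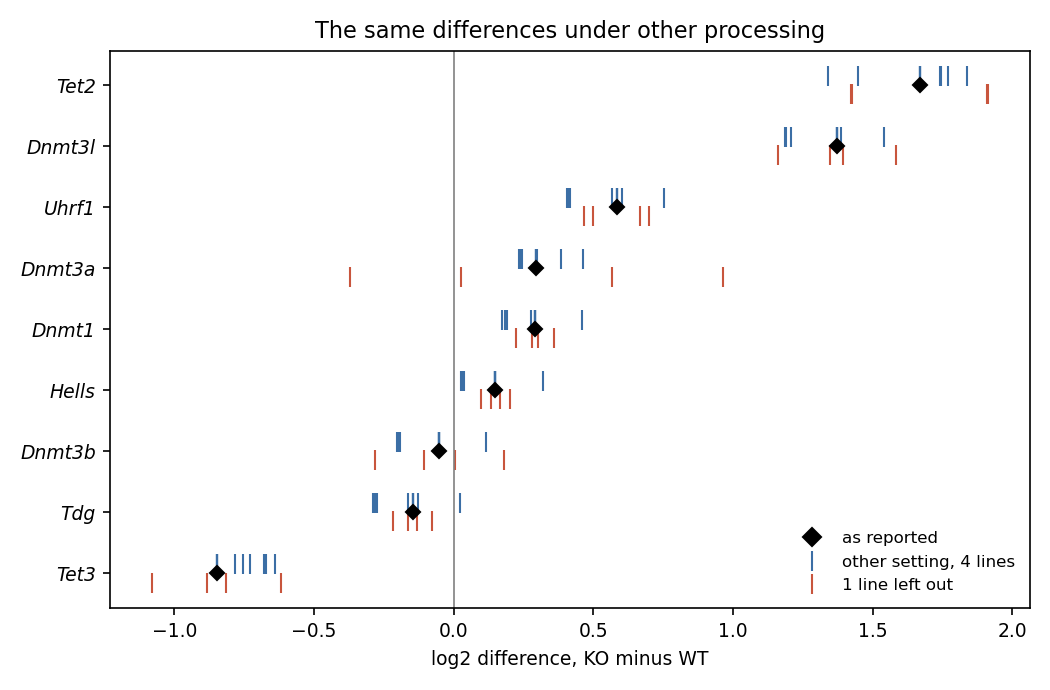
KO minus WT difference (log2, horizontal axis) of each gene as reported (diamonds), under other processing of the 4 lines (blue ticks) and with 1 line left out (red ticks). Tet2, Dnmt3l, Uhrf1, Dnmt1 and Hells stay above 0 and Tet3 below 0 under the 15 alternatives, whereas Dnmt3a, Dnmt3b and Tdg cross 0 under at least 1.

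Genes that work beside these enzymes were read from lists set by function. Their counts at an unadjusted p under 0.05 stand beside 11.1% higher and 12.4% lower among all genes, and no gene of the lists on methylation, repair, methyl supply and replication passed with adjustment. The list medians moved with the scaling between arrays, and their ranges over 15 alternatives are given beside them. None of the 14 tested partners and regulators of the methyltransferases passed the limma test, and 4 were higher and 2 lower at an unadjusted p under 0.05, with a median difference of 0.23 (range 0.12 to 0.40). Zfp57, which with Trim28 keeps methylation at imprinted regions, differed by 1.63 on the log2 scale (limma adjusted p = 0.129), and Trim28 by 0.55 (limma adjusted p = 0.135). Uhrf2, the paralogue of Uhrf1, read 12.73 and 12.74 in WT and 12.21 and 12.04 in KO, a difference of -0.61 (limma adjusted p = 0.127). Uhrf1 and Uhrf2 thus differed in sign, each without overlap between genotypes.

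Readers of methylated CpG sites, 9 of them tested, had a median difference of -0.07 (range -0.15 to 0.098), with none called. At an unadjusted p under 0.05, 0 were higher and 2 lower. Zbtb4 differed by -0.71 (limma adjusted p = 0.144) and Mbd1 by 0.45 (limma adjusted p = 0.298), and both encode proteins that bind methylated DNA and are tied to repression.

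The steps after Tet and Tdg were covered by 17 tested genes of base excision repair and cytosine deamination, with none called, 7 higher and 1 lower at an unadjusted p under 0.05, and a median of 0.34 (range 0.23 to 0.51). Apobec1, a cytidine deaminase, had the smallest p of them and averaged 8.87 ± 0.19 in WT and 10.03 ± 0.071 in KO (SD, n = 2 each), a difference of 1.16 (limma adjusted p = 0.0722). The repair scaffold Xrcc1 differed by 0.53 and the glycosylase Neil1 by 0.82 (limma adjusted p = 0.170 and 0.178). Partners of Tet proteins and genes that supply or drain their cofactor, 12 tested, had a median of 0.13 (range 0.064 to 0.29) with none called, 1 higher and 1 lower at an unadjusted p under 0.05. Cxxc4, which binds Tet2 and lowers its protein, was dim, at 4.52 and 4.05 in the WT lines. It was kept through those lines alone and was not well above background in either KO line. Its WT signal was at least 2.01-fold higher when set against the lowest KO signal that counted as above background (limma adjusted p = 0.125). A link to the Tet2 level was not tested. Sall4 differed by 0.46 and D2hgdh, which clears a competitor of the Tet cofactor, by 1.01 (limma adjusted p = 0.178 and 0.245).

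Supply of the methyl group through folate and S-adenosylmethionine was covered by 21 tested genes. None was called, 5 were higher and 1 was lower at an unadjusted p under 0.05, and the median was 0.28 (range 0.23 to 0.45). Cbs, which diverts homocysteine away from the methyl cycle, differed by 0.94, and the serine-to-folate enzymes Shmt2 and Shmt1 by 0.82 and 0.49 (limma adjusted p from 0.135 to 0.148). Without KO 1, 1 gene of these 5 lists passed the test, Bhmt2, which regenerates methionine, with a difference of -3.05 (limma adjusted p = 0.0462); it is named for this call alone.

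Because Dnmt1, Uhrf1 and Hells are made mostly in the DNA synthesis phase, 22 DNA replication genes were read beside them. None was called and 5 were higher at an unadjusted p under 0.05, among them Pola1 (0.56), Prim1 (0.46) and Chaf1b (0.37), with limma adjusted p of 0.135, 0.163 and 0.197. Their median difference was 0.24, and 21 of the 22 were positive, beside 59.2% of all genes. With quantile scaling that median was 0.067, below the 0.10 of all genes, and it was 0.056 under normexp with quantiles, 0.095 from the deposited values and 0.41 with median centring. The part of replication in the values of the maintenance genes was not tested.

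**Figure D5:**
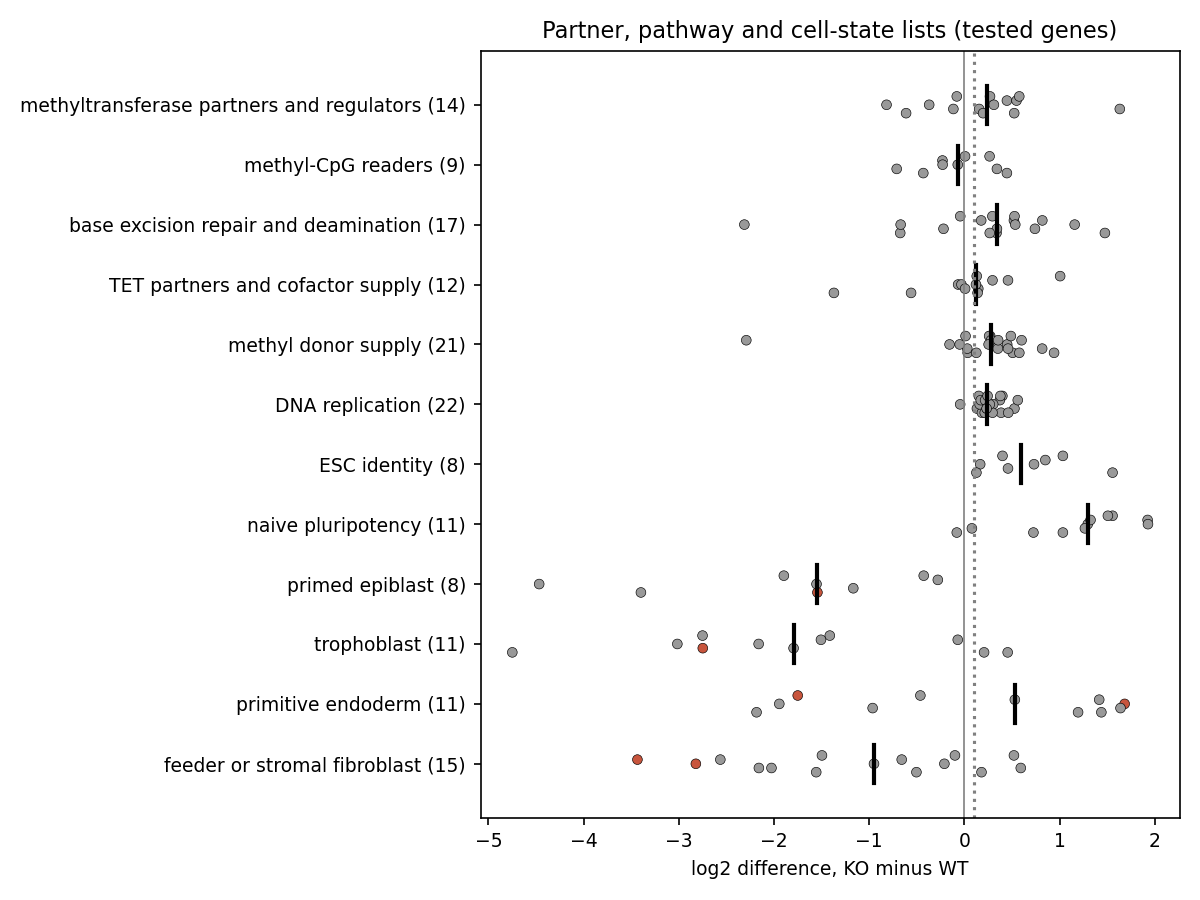
KO minus WT difference (log2, horizontal axis) of each tested gene in 12 lists (vertical axis, with the number tested), with black bars for list medians, the dotted line for the median of all genes (0.10) and red points for genes that passed the limma test. The upper 6 lists, on methylation, repair, methyl supply and replication, hold no red point and centre between -0.07 and 0.34. The lower 6 are cell-state lists, of which naive pluripotency lies to the right (median 1.30) and primed epiblast and trophoblast to the left (-1.55 and -1.79).

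Germline genes known to be silenced by promoter methylation were lower in KO: 11 of 16 tested fell in the limma test, beside 1.67% of all genes, and none rose, with a median of -4.05, or -2.80 with the 8 genes below background in both KO lines set to their bound. Of the 16, 5 were above background on all 4 arrays, and the rest were kept through the WT lines, where they are high. Normexp background correction followed by 75th-percentile scaling gave a median of -1.17, with a further shift towards 0 under normexp with quantiles. With probes required to be above background in every line, it was -0.56. Syce1 (synaptonemal complex), Taf7l (a germ cell transcription subunit) and Dazl (a germ cell RNA-binding protein) were not well above background in the KO lines and were at least 187-fold, 43.7-fold and 15.8-fold higher in WT (limma adjusted p = 0.00682, 0.00682 and 0.00874). With the mother as a block none of the 11 calls remained, nor any other over all genes, and these 3 genes had limma adjusted p = 0.0790. This list was drawn up with that loss already known, so its count is no independent evidence. The arrays carry no measure of methylation at these promoters.

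Some cell-state markers differed between genotypes, and their part in the values of the 9 genes was not tested. The 6 calls among these lists were lost with the mother as a block (limma adjusted p from 0.0830 to 0.119). All 8 tested markers of ESC identity were above background on the 4 arrays, with a median of 0.59 and none called; Sox2 differed by 0.85, Esrrb by 1.56 and Utf1 by 0.73. Naive pluripotency genes, 11 tested, had a median of 1.30 with none called, and Eras, Nr0b1 and Tfcp2l1 differed by 1.30, 1.93 and 1.32 (limma adjusted p = 0.0602, 0.0645 and 0.0859). Among 8 primed epiblast genes Sox4 fell by 1.54 in the limma test (adjusted p = 0.0371), the other 7 did not pass (Fgf5 -3.40, Lef1 -1.90), and the median was -1.55. Esrrb and Zfp42 are in both the ESC and the naive list, and Dppa3, Sall4 and Mbd4 also stand in more than 1 list.

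Of 11 trophoblast genes, Krt8 was called lower (-2.75, limma adjusted p = 0.0497), Hand1 (-4.75) and Gata3 (-1.51) were not called, and the median was -1.79. The summed trophoblast level was 18.18 and 18.59 in WT and 16.41 and 15.96 in KO on the log2 scale. Of 11 primitive endoderm genes, Lama1 rose (1.68) and Dab2 fell (-1.75) in the limma test (adjusted p = 0.0398 and 0.0381), while Col4a2 did not pass (-1.94), with a median of 0.53. That median was 0.17 without KO 1, 0.28 without WT 2, 0.22 under normexp with quantiles and 0.027 under normexp with the 75th percentile. The summed level there was 14.28 and 14.19 in WT and 13.63 and 13.22 in KO. Of 15 fibroblast genes, Mmp2 (-3.44) and Fbn1 (-2.82) fell (limma adjusted p = 0.0223 and 0.0253) and Twist2 (-2.56) did not pass, with a median of -0.95. That median was -0.11 without WT 1 and -1.86 without WT 2. Normexp correction gave -0.54 when followed by 75th-percentile scaling and -0.36 with quantiles. Their summed level was 15.65 in WT 1, 14.28 in WT 2, 14.65 in KO 1 and 15.12 in KO 2, so it overlapped between genotypes.

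On quality and identity, 68.4% to 70.3% of 41174 probes were well above background per array and none was saturated on any. Dppa2 read 12.09 and 12.03 in WT and 7.05 and 7.12 in KO, a fall by 4.97 on the log2 scale (limma adjusted p = 0.0089, or 0.0790 with the mother as a block). Dppa4 read 13.37 and 13.54 in WT and 13.95 and 14.07 in KO (difference 0.55, limma adjusted p = 0.154). WT 1 stood apart in Y-linked genes and some stromal genes. Col3a1 read 10.44 there and 8.02, 7.96 and 7.51 in WT 2, KO 1 and KO 2, and Col1a1 read 12.47 against 10.67, 10.16 and 9.87. In WT 1, 6 of 6 probes for 4 Y-linked genes were above background, and 0 of 6 in the other 3 lines. The 4 Xist probes were dim, from 1.91 to 5.52 over the 4 lines. The sex of the 3 lines without Y-linked signal is not known. The median X-linked gene differed from WT 1 by 0.012 in WT 2, 0.039 in KO 1 and -0.046 in KO 2, and the median autosomal gene by 0.0006, 0.093 and 0.090. Without WT 1 the differences were 1.91 for Tet2, 1.58 for Dnmt3l, 0.67 for Uhrf1 and 0.28 for Dnmt1. They were 0.57 for Dnmt3a, 0.13 for Hells, 0.0056 for Dnmt3b, -0.22 for Tdg and -0.81 for Tet3. None was called without WT 1 either, and the sign was that of all 4 lines except for Dnmt3b.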

How the data were processed

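Expression was read in 4 lines on 1 slide of Agilent arrays. The deposited intensity values come, per the file headers, from Feature Extraction 10.7.3.1 and had local background and spatial trend removed array by array. The authors' deposited table holds log2 values, quantile-normalized as read from the values, and GeneSpring GX11 is named per the labels. Here, log2 intensity minus each array's 75th percentile was used, without control spots and outlier spots. Also left out were 233 probes with every spot flagged as an outlier on at least 1 array. Spots of a probe were averaged. Accessions were matched to a RefSeq table of GRCm38.p6 (the files' annotation is mm9): 26690 of 41174 probes got 1 symbol and 14484 none, and the latter kept their accession. Probes had to be well above background in both lines of 1 genotype or the other, and each gene was read from its brightest kept probe. Genotype was fitted with limma 3.58.1 (lmFit, eBayes, R 4.3.3) over 21639 genes, with Benjamini-Hochberg adjustment at 0.05. Only this fit, not the steps before it, was tested on simulated data. The shared mother in the labels pairs the lines, and the differences between mothers correlated at 0.19 across genes in both genotypes, so a fit with the mother as block was run beside it. The genes and lists were chosen with earlier results of these data known. All member probes, Dppa2, Dppa4 and the 3 genes of smallest p per list are named, except 1 that is not reported here. Normexp (offset 50) was run on the median spot signal, chosen after seeing the data because the files hold no mean. For a gene below background in 1 genotype, a bound (at least N-fold) sets the other genotype's mean against the dimmest signal still well above background, averaged over arrays.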

Additional observations from a re-analysis of the deposited data

How the results depend on the processing

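Over 15 alternatives, the differences of Dnmt1, Hells, Uhrf1, Dnmt3l, Tet2 and Tet3 kept their direction. Dnmt3l ranged from 1.16 to 1.58, Tet2 from 1.34 to 1.91, Uhrf1 from 0.41 to 0.75 and Tet3 from -1.08 to -0.62. Dnmt3l passed in 2 of them (limma adjusted p = 0.0491 and 0.0439, up to 0.287 in the others), so 1 member was called higher under normexp with the 75th percentile and with the trend and robust prior, and Tet2 in none (from 0.0521 to 0.332). Median centring gave 0.12 for Dnmt3b and 0.022 for Tdg, the other sign. With 1 line left out, Dnmt3b ranged from -0.28 to 0.18, Dnmt3a from -0.37 (without KO 1) to 0.96, the median of the 9 genes from 0.17 to 0.28, the members lower at an unadjusted p under 0.05 from 0 to 1 (2 under normexp with quantiles), and the list genes called from 0 to 1. The median of the 9 was 0.19 with quantile scaling, 0.46 with median centring, 0.17 under normexp with quantiles and 0.18 from the deposited values.

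With the mother as block (paired lines), 0 genes were called higher and 0 lower, against 38 and 361, and Dnmt3l had limma adjusted p = 0.125 and Tet2 0.165. Calls over all genes were 69 higher under normexp with the 75th percentile, 10 without a filter on dim probes, 80 with the trend and robust prior, and 0 higher and 0 lower with probes above background on all 4 arrays. With 1 line left out they ranged from 0 to 64 higher and 0 to 679 lower, where the lone line of a group was taken to vary like the other group. The cause of these differences was not tested. The planned normexp on the mean spot signal was not run. The number of arrays, 2 a group, limits all precision here, and 4 genes rested on 1 probe (Dnmt1, Hells, Dnmt3b and Dnmt3l).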
